A study of Mus musculus with 2 samples.

Results

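Interferon-stimulated genes are genes whose transcription goes up when a cell is exposed to interferon, and 39 of them were followed here in mouse mast cells treated with an siRNA against GATA1 or with a control siRNA. The 39 genes were taken as a list of names, and every non-control probe whose array gene name is on the list was taken, which gave 51 probes on 69 spots. They stand among 34797 gene names on the array. The genes were divided by role into RNA sensors, transcription factors, the ISG15 system and PARP genes (1 class), antiviral effectors, interferon-inducible GTPases, antigen processing and the chemokine Cxcl10.

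The cells were bone marrow-derived mast cells of C57BL/6 mice, transfected with a GATA1 siRNA or a control siRNA, each at 200 pmol. In both groups marrow mononuclear cells had first been kept for 2 weeks with 10 ng/mL interleukin 3, then for 2 weeks with interleukin 3 together with 10 ng/mL stem cell factor. Material from 2 animals was pooled for each siRNA and hybridised to 1 one-colour Agilent array, so that each group is a single array made from 100 ng of amplified RNA. Both groups received an siRNA, and a culture without siRNA was not analysed here. With 1 array a group there is no test across arrays and no estimate of the spread between cultures, and having 2 arrays limits how precise any value can be. Rules of size took the place of a test (a signal at least 25% higher or 20% lower, which are a log2 difference of 0.32 in either direction, and 1.5-fold or 2-fold in either direction), and the counts of the whole set are given beside the share of all measured genes past the same rule.

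Cells detect viral RNA with helicase sensors such as those encoded by Ifih1 and Ddx58, which lead to the production of type I interferon. Type I interferon acts through its receptor on a complex with Stat2 and Irf9 that binds the interferon-stimulated response element, while interferon gamma acts mainly at gamma-activated sequences and through the induced factor Irf1. The induced proteins degrade viral RNA, hold back virus particles, attack the vacuoles of intracellular microbes or widen the supply of peptides for MHC class I molecules. GATA1 is a zinc finger transcription factor of the erythroid, megakaryocyte, eosinophil and mast cell lineages.

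Upstream sequences are shown for 5 of the 6 GTPase genes and for an ISG15 gene, an oligoadenylate synthetase gene and an IFIT gene. The GTPases had the highest class median difference, and the other 3 are textbook interferon-stimulated genes with a small, a moderate and no measured difference here. Each line gives the 150 bases before an annotated start of the gene, 5′ to 3′ on the gene's strand, from RefSeq (GRCm38.p6). Capitals mark GAAA and GAAA set apart by any 2 bases, the core of the interferon-stimulated response element, on either strand, with overlapping matches run together. Every printed line holds a match, which is not so for the whole set. Ifi47, Ifit2 and a second annotated start of Gbp3 have no match and are not printed.
Gbp2 (chr3:142620513-142620662, plus strand): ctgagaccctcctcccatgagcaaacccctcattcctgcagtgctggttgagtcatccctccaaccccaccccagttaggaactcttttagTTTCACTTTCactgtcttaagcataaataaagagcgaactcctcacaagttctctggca
Gbp3 (chr3:142559894-142560043, plus strand): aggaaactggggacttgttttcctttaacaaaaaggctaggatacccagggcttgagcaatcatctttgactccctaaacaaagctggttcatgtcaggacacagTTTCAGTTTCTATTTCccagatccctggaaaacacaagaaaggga
Igtp (chr11:58199406-58199555, plus strand): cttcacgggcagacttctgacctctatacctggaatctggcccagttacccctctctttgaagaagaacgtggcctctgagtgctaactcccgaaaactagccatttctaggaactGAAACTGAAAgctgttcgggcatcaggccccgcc
Irgm2 (chr11:58214827-58214976, plus strand): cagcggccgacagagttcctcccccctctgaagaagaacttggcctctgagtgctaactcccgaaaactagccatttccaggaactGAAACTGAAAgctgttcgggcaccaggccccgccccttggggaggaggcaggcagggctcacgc
Irgm1 (chr11:48871421-48871570, minus strand): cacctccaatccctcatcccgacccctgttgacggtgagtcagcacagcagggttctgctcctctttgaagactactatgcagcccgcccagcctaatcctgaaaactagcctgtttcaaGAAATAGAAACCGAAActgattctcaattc
Isg15 (chr4:156200819-156200968, minus strand): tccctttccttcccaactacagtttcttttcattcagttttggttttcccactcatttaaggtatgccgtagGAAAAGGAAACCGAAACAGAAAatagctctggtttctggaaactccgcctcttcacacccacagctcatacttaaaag
Oas1a (chr5:120907526-120907675, minus strand): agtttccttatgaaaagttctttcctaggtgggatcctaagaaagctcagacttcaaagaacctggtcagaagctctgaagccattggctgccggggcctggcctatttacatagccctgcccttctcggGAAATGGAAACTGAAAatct
Ifit1 (chr19:34640739-34640888, plus strand): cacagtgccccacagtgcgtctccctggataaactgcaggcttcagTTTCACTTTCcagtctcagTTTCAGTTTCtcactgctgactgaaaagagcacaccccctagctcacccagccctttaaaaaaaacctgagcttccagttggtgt
The core was found in the 300 bases around a start (250 before and 50 after) of 17 of the 31 listed genes that have a promoter entry (54.8%), against 3.99% of 27025 genes in the table. The gamma-activated sequence TTCNNNGAA, which reads the same on both strands, was found in 9 of the 31 (29.0%), against 9.55% of all genes. The matches overlap in 1 gene, Bst2. Of the GTPase genes, Gbp2, Gbp3, Igtp, Irgm1 and Irgm2 hold the response element core, and no match lies in the window of Ifi47. Igtp and Irgm2, neighbours on chromosome 11, share 103 of 120 aligned upstream bases (85.8%), with an identical run of 38 bases, whereas the other pairs among the 5 genes reached at most 34.6%. A match is a description of the letters only. Promoter entries were not available in the table used here for Oas2, Mx1, Mx2, Rtp4, Parp9, Parp14, Dhx58 and Usp18.

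A gene's level is given as its relative signal, the spot's processed signal divided by the 75th percentile of the array (340.0 on the GATA1 siRNA array and 303.2 on the control siRNA array). A probe counts as measured where the scanner software called it well above background, without saturation, on the one array and on the other. Of 59305 non-control spots, 33062 (55.7%) were above background on the GATA1 siRNA array and 31617 (53.3%) on the control siRNA array. The targeted gene, Gata1, had a relative signal of 11.6 on the GATA1 siRNA array and 54.1 on the control siRNA array, a log2 difference of -2.23. All 10 mast cell markers, among them Kit, Fcer1a and Cpa3, were measured, with summed relative signals of 2332 on the GATA1 siRNA array and 2529 on the control siRNA array and a median log2 difference of -0.06. Of these markers 6 were below 0, and the granule protease genes Mcpt4 (-0.88) and Tpsb2 (-0.55) were at least 20% lower.

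Of the 39 interferon-stimulated genes, 30 were measured on both arrays (76.9%, against 58.7% of all genes). A further 4 were above background on the GATA1 siRNA array only (10.3%, against 3.22% of all genes), 0 on the control siRNA array only (0.957% of all genes) and 5 on neither (12.8%, against 37.1%). The 5 not above background on either array were Ifit1, Oas1g, Oas3, Ifi44 and Cxcl10. Measured genes include some of every class but the chemokine, and the undetected genes are otherwise all antiviral effectors.

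Signals of the measured genes were mostly somewhat higher on the GATA1 siRNA array. The log2 difference (GATA1 siRNA minus control siRNA) was above 0 for 27 of the 30 (90%), where 52.7% of all 20413 measured genes were above 0. Its median was 0.22, or 1.16-fold, with quartiles of 0.11 and 0.35 and a range of -0.15 to 0.73. Over all measured genes the median was 0.012, the quartiles -0.13 and 0.12 and the SD 0.29. The upper quartile of all genes was exceeded by 22 of the 30. In these bulk samples, more cells of a type that expresses the genes and more RNA per cell cannot be told apart.

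**Figure D1:**
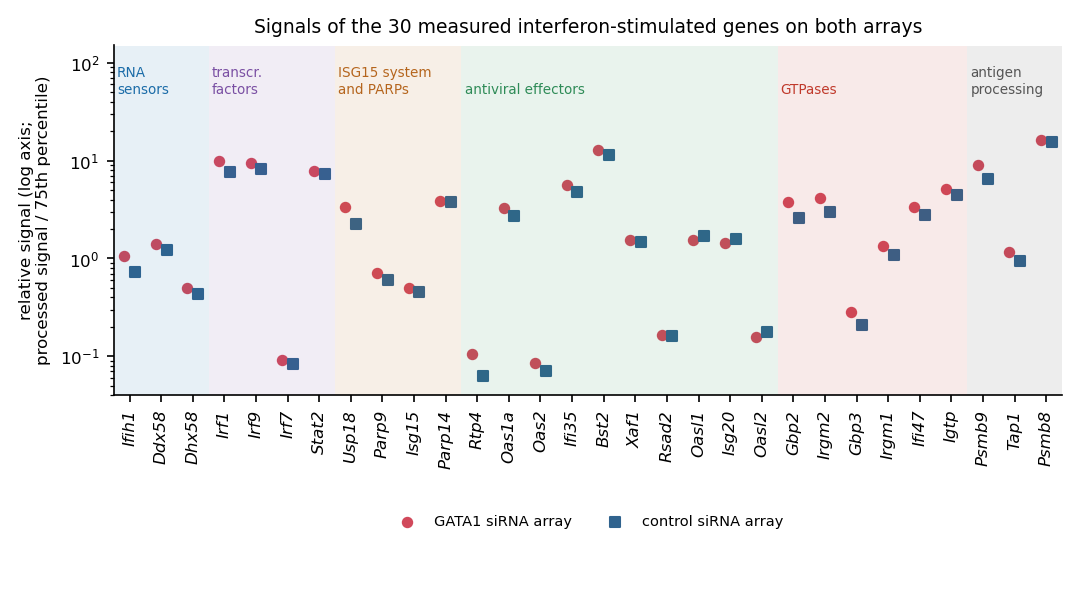
Relative signal (log axis) of each of the 30 measured interferon-stimulated genes, 1 gene a column grouped by role, on the GATA1 siRNA array (circles) and the control siRNA array (squares); levels of different genes come from different probes and are not comparable. The circle lies above the square in 27 columns, and the 3 exceptions are Oasl1, Isg20 and Oasl2 among the antiviral effectors.

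The differences were small. Signals at least 25% higher were found for 8 of the 30 (26.7%, against 7.31% of all genes): Gbp2, Gbp3, Irgm2, Usp18, Ifih1, Irf1, Psmb9 and Rtp4. Of these, Rtp4 and Usp18 were at least 1.5-fold higher (6.67%, against 1.83% of all genes). A 2-fold higher signal was reached by 0 of the 30, against 0.294% of all genes. Signals at least 20% lower were found for 0 of the 30, against 9.5% of all genes, and the same count of 0 stands beside 2.76% of all genes at 1.5-fold lower and 0.607% at 2-fold lower. The scanner software gives an error for each spot, and for these genes the error of the log2 difference lay between 0.20 and 0.33. Its median was 0.20, and it was nearly the same for all but the dim genes. For those genes a rule set by this error therefore acts much as a further fixed rule of size. The difference exceeded its error upwards in 15 of the 30 (50%, against 13.2% of all genes) and downwards in 0 (14.7% of all genes). It exceeded 2 such errors upwards in 6 genes (20%, against 3.45% of all genes), namely Gbp2, Irgm2, Usp18, Ifih1, Psmb9 and Rtp4. This error covers the spot and the scan, not the culture or the animals.

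**Figure D2:**
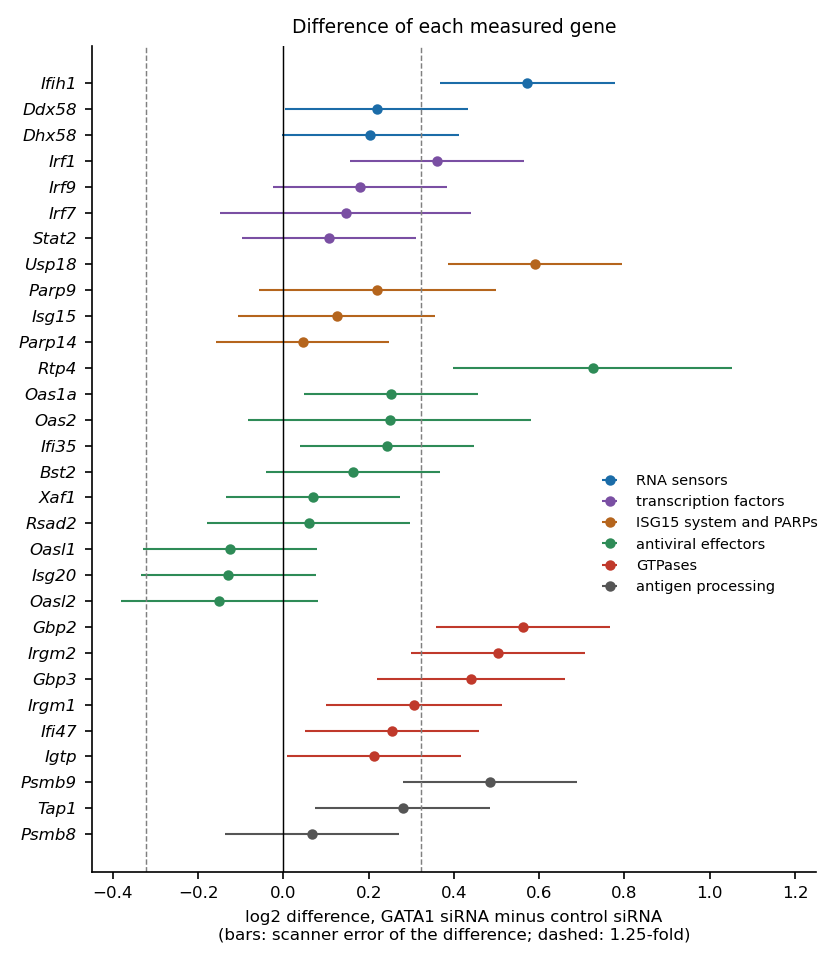
Log2 difference (GATA1 siRNA minus control siRNA) of the 30 measured interferon-stimulated genes, coloured by role; bars are the scanner error of the difference, dashed lines mark log2 differences of 0.32 and -0.32 and the solid line marks 0. The 6 GTPases lie between 0.21 and 0.56, and the 3 genes below 0 lie between -0.15 and -0.12 with bars that cross 0.

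**Figure D3:**
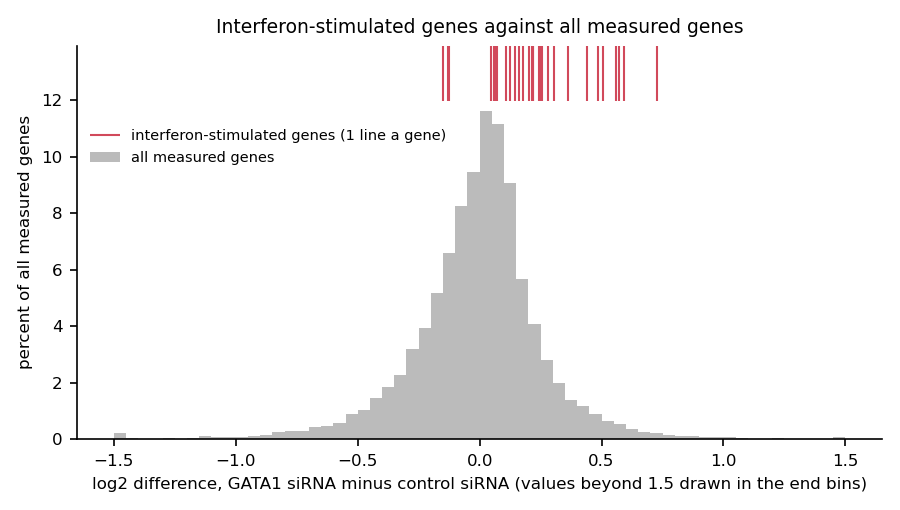
Distribution of the log2 difference (GATA1 siRNA minus control siRNA) over all 20413 measured genes, as percent of genes a bin (vertical axis), with a line for each of the 30 measured interferon-stimulated genes and values beyond 1.5 in the end bins. The interferon-stimulated genes centre on 0.22, all genes on 0.012.

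Among the RNA sensors all 3 genes were above 0, with a median log2 difference of 0.22. Ifih1, which encodes the sensor of long double-stranded RNA, had a relative signal of 1.07 on the GATA1 siRNA array and 0.721 on the control siRNA array, 1.49-fold higher. Its other probe was not above background on either array. Ddx58, which encodes the sensor RIG-I, had relative signals of 9.28 on the GATA1 siRNA array and 7.47 on the control siRNA array at its brighter probe. The dimmer probe read 0.212 on the GATA1 siRNA array and 0.195 on the control siRNA array, and the log2 differences were 0.31 and 0.12. Dhx58, whose product modulates both sensors, was the lowest of the class, at 0.504 on the GATA1 siRNA array and 0.438 on the control siRNA array (log2 difference 0.20). The differences of Ddx58 and Dhx58 were about the size of their scanner error, and that of Ifih1 was larger than 2 errors.

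All 4 transcription factors were above 0, with a median of 0.16. Irf1, an activator that interferon gamma induces, read 9.81 on the GATA1 siRNA array and 7.64 on the control siRNA array, 1.28-fold higher, at the measured 1 of its 2 probes. The subunits of the complex that binds the response element had smaller differences. Irf9, its DNA-binding subunit, read 9.37 on the GATA1 siRNA array and 8.27 on the control siRNA array. Stat2, its activating subunit, read 7.87 on the GATA1 siRNA array and 7.31 on the control siRNA array, a log2 difference of 0.11. Irf7, the factor that amplifies interferon alpha production, was dim on both arrays, at 0.0926 with GATA1 siRNA and 0.0837 with control siRNA, and its difference of 0.15 was within its scanner error of 0.29.

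Of the ISG15 system genes Isg15 and Usp18 and the PARP genes Parp9 and Parp14, all 4 gene values were above 0 with a median of 0.17. Usp18 encodes the protease that removes ISG15 from proteins and also dampens signalling at the type I interferon receptor. It read 3.37 on the GATA1 siRNA array and 2.23 on the control siRNA array, 1.51-fold higher. Isg15 itself, the ubiquitin-like modifier, had probes that disagreed. The brighter Isg15 probe read 1.67 on the GATA1 siRNA array and 1.97 on the control siRNA array, a log2 difference of -0.24, and the dimmer read 0.147 on the GATA1 siRNA array and 0.105 on the control siRNA array, a difference of 0.49. The dimmer probe has an annotated span of 20 bases and sits beside spots that differ strongly between the arrays, so the gene value of 0.13 has no settled direction. Parp9 and Parp14 belong to the ADP-ribosyltransferase family. Parp9 had differences of 0.32 and 0.12 at its 2 probes, and Parp14 read 3.86 on the GATA1 siRNA array and 3.75 on the control siRNA array (0.04).

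The antiviral effectors were the class with the least uniform direction. Of 18 genes, 10 were measured, 7 of these were above 0 and the median was 0.12. Rtp4, an interferon-induced gene of the receptor transporter family, had the highest log2 difference of the 30 measured genes, 0.73. Its signals were low, 0.105 on the GATA1 siRNA array and 0.0635 on the control siRNA array (1.65-fold), and its scanner error was 0.33. With normexp background correction its difference was 0.13, past none of the rules of size and below the 0.57 of Usp18, and it was not measured where a signal of at least 50 on both arrays was required. The 3 genes below 0 were Oasl1, Oasl2 and Isg20. Oasl1, which encodes an oligoadenylate synthetase-like protein, read 1.56 on the GATA1 siRNA array and 1.70 on the control siRNA array (log2 difference -0.12). Its neighbour Oasl2 read 0.159 on the GATA1 siRNA array and 0.176 on the control siRNA array, the lowest difference of the class at -0.15. Isg20, an exonuclease gene, had differences of -0.23 and -0.03 at its 2 probes and a gene value of -0.13. Only the first Isg20 probe differed by more than its scanner error of 0.20.

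The remaining measured effectors lay between 0.06 and 0.25. Oas1a, an oligoadenylate synthetase gene whose product leads to RNA decay by RNase L, had differences of 0.29 and 0.22 at its 2 probes. Oas2 was dim and read 0.0848 on the GATA1 siRNA array and 0.0713 on the control siRNA array (0.25, scanner error 0.33). Ifi35 differed by 0.24, Bst2, which encodes the virion-tethering protein tetherin, by 0.16, Xaf1 by 0.07 and Rsad2, the viperin gene, by 0.06. Oas1a and Ifi35 exceeded their scanner error, and the other 4 did not.

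The 4 genes above background on the GATA1 siRNA array only were all effectors close to the detection limit. Relative signals of Mx1 were 0.0576 on the GATA1 siRNA array and 0.0375 on the control siRNA array, and those of Mx2 were 0.0565 on the GATA1 siRNA array and 0.0259 on the control siRNA array. A bound was set against the lowest signal that was above background on the control siRNA array (relative signal 0.050). With GATA1 siRNA, Mx1 stood at 1.15-fold and Mx2 at 1.13-fold that lowest signal. The scanner errors of their log2 differences were 0.48 and 0.69. These genes are grouped by being above background on the GATA1 siRNA array only, which itself favours this direction. Ifit3 read 0.0484 on the GATA1 siRNA array and 0.0101 on the control siRNA array, and Ifit2 read 0.0428 on the GATA1 siRNA array and 0.0441 on the control siRNA array. Both lie under the lowest value above background on the control siRNA array, so that no fold can be given. RefSeq (GRCm38.p6) lists Mx1 and Mx2 as transcribed pseudogenes in this assembly.

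The interferon-inducible GTPases, which act on the vacuoles of intracellular microbes, had the highest class median, 0.37, with 6 of 6 genes above 0 (52.7% of all genes) and 3 of 6 at least 25% higher (7.31% of all genes). Gbp2, a guanylate-binding protein gene, read 3.81 on the GATA1 siRNA array and 2.58 on the control siRNA array, 1.48-fold higher. Gbp3, from the same family, read 0.281 on the GATA1 siRNA array and 0.207 on the control siRNA array, 1.36-fold higher, but by a log2 difference of 0.19 with normexp background correction, under the 25% rule. The immunity-related GTPase gene Irgm2 read 4.19 on the GATA1 siRNA array and 2.95 on the control siRNA array, 1.42-fold higher. Irgm1, a regulatory member of the same family, was higher at both of its probes. Its brighter probe read 3.66 on the GATA1 siRNA array and 2.73 on the control siRNA array (0.42), and its dimmer probe 0.493 on the GATA1 siRNA array and 0.432 on the control siRNA array (0.19). Ifi47 read 3.32 on the GATA1 siRNA array and 2.78 on the control siRNA array (0.25). Igtp was the lowest of the class at 5.12 on the GATA1 siRNA array and 4.41 on the control siRNA array (0.21). All 6 gene differences exceeded their scanner error.

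The antigen processing genes had a median of 0.28. Psmb9, a catalytic subunit of the immunoproteasome, read 9.0 on the GATA1 siRNA array and 6.44 on the control siRNA array, 1.40-fold higher. A second Psmb9 probe was above background on the GATA1 siRNA array only, at 0.0732 on that array and 0.0247 on the control siRNA array. The first value was 1.46-fold the lowest signal above background on the control siRNA array. The scanner error of this probe's log2 difference was 0.66. Psmb8, another catalytic subunit, read 16.4 on the GATA1 siRNA array and 15.7 on the control siRNA array (0.07), within its scanner error. Tap1, which encodes a subunit of the peptide transporter, read 1.16 on the GATA1 siRNA array and 0.952 on the control siRNA array (0.28). These 3 genes lie within 18657 bases of chromosome 17 (mm9, 34319174 to 34337830).

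Igtp and Tap1 are printed at 10 spots each, which gives their reading error directly. Igtp signals ran over 4.86 to 5.37 on the GATA1 siRNA array and 4.04 to 4.72 on the control siRNA array, with log2 differences of 0.15 to 0.30 (median 0.19, SD 0.05, 10 spots). Tap1 signals ran over 1.06 to 1.21 on the GATA1 siRNA array and 0.915 to 1.04 on the control siRNA array, with differences of 0.16 to 0.39 (median 0.30, SD 0.07, 10 spots). For both genes the spots of the 2 arrays did not overlap and 10 of 10 spots were higher with GATA1 siRNA. Spots of 1 array share their RNA, so this spread is technical.

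**Figure D4:**
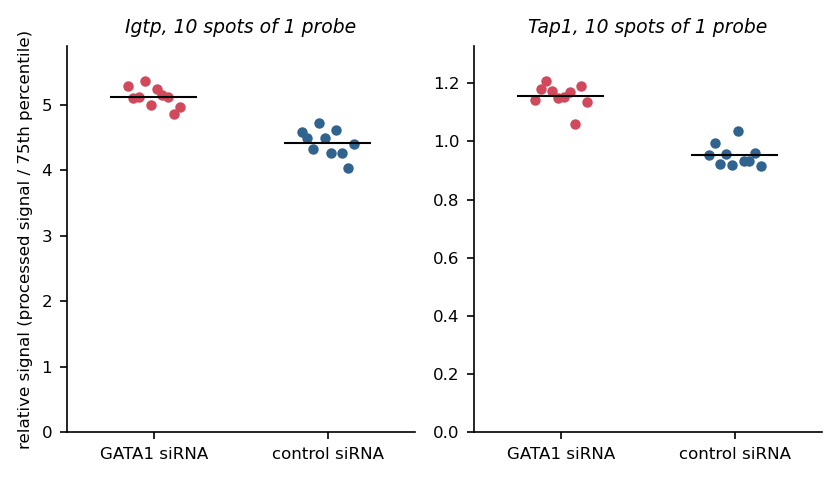
Relative signals of the 10 spots of Igtp and of Tap1 on the GATA1 siRNA array (left) and the control siRNA array (right), 1 point a spot and a line at their arithmetic mean, with axes from 0. The spots of the 2 arrays do not overlap for either gene.

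Several of the genes are neighbours in the genome (positions of the probes, mm9), and 7 groups of neighbours held measured genes. Gbp3 and Gbp2, within 64747 bases on chromosome 3, had differences of 0.44 and 0.56. Oasl2 and Oasl1, within 25753 bases on chromosome 5, were both below 0, while Oas2 and Oas1a, elsewhere on chromosome 5, were both at 0.25. Igtp and Irgm2, within 15226 bases on chromosome 11, had differences of 0.21 and 0.50 although their upstream sequences are the closest pair shown above. Irgm1 and Ifi47, on the same chromosome, were at 0.31 and 0.25. Parp14 and Parp9, within 139645 bases on chromosome 16, were at 0.04 and 0.22, and the antigen processing genes on chromosome 17 ran from 0.07 to 0.48. Ifit1, Ifit2 and Ifit3, within 73612 bases on chromosome 19, gave no measured gene. Measured genes with the response element core had a median of 0.24 (12 genes, 12 above 0), and those without it, among genes with a promoter entry, a median of 0.16 (12 genes, 9 above 0). Of all measured genes, 52.7% were above 0, and all genes with the core were not counted apart. The genes with the core include most GTPases and Isg15, whose direction is not settled. For the gamma-activated sequence the medians were 0.23 with it (8 genes, 7 above 0) and 0.20 without it (16 genes, 14 above 0).

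The difference over all genes depended on signal strength, so the 30 genes were also set beside genes of similar level. In the dimmest of 3 equal groups of genes the median was 0.20 for 6 interferon-stimulated genes (5 above 0) and -0.08 for all genes, 39.2% of which were above 0. In the middle group it was 0.22 for 11 interferon-stimulated genes (9 above 0) and 0.0043 for all genes, 51.1% of which were above 0. In the brightest group it was 0.24 for 13 interferon-stimulated genes (13 above 0) and 0.05 for all genes, 67.9% of which were above 0. The 8 genes at least 25% higher were spread over the 3 groups, with 2, 2 and 4 from dim to bright, where 10.8%, 6.64% and 4.51% of all genes passed the same rule.

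The rest of the interferon pathway was described from a second list of 98 genes, of which 94 are on the array and 81 were measured. Of the 81, 63 were above 0 (77.8%, against 52.7% of all genes), 13 were at least 25% higher (16%, against 7.31%) and 1 was at least 20% lower (1.23%, against 9.5%), with a median of 0.15. The pathway list was not set beside genes of similar level. The share of all genes above 0 was 39.2% in the dimmest of the 3 groups by level and 67.9% in the brightest, where many genes of the list lie. The ligands did not lean upwards, with 2 of the 4 measured genes above 0. Ifnb1, Ifna4, Ifnk, Ifne and the interferon gamma gene Ifng were not above background on either array. The measured ligand genes were Ifna1 at -0.07, Ifna2 at -0.28, Ifna5 at 0.13 and Ifnl3 at 0.03, all of families with near-identical copies whose probes may share transcripts. All 5 measured receptor genes were above 0 (52.7% of all genes) with a median of 0.32, and 3 of them were at least 25% higher (7.31% of all genes). These were Ifnar2 (0.44), Ifngr1 (0.36) and Ifngr2 (0.32), which encode chains of the type I and the type II receptor. Ifngr2, at 0.3227, passed the rule only narrowly, as its limit is 0.3219.

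The kinase and STAT genes were above 0 in 5 of 5 cases, with a median of 0.17. Feedback genes were above 0 in 5 of 5, and sensing and relay genes in 8 of 13 (median 0.03). Other induced genes were above 0 in 31 of 41 (median 0.15), and 7 of them were at least 25% higher (17.1%, against 7.31% of all genes). Other antigen processing genes were above 0 in 7 of 8 (median 0.21), with 0 at least 25% higher. Of all measured genes 52.7% were above 0, and 67.9% of those in the brightest of the 3 groups by level. That group holds Jak1, Jak2, Tyk2, Socs1, Socs3, Ptpn6 and Ptpn11, and 5 genes are few to set beside these shares. The 1 gene of the pathway list at least 20% lower was Tmem173, the STING adaptor gene, at -0.38. The 4 differences of the largest size were those of Gbp9, Ly6e, Ifi204 and Socs3. Gbp9, another guanylate-binding protein gene, read 0.103 on the GATA1 siRNA array and 0.0556 on the control siRNA array (0.89). Ly6e, an interferon-induced surface protein gene, read 48.6 on the GATA1 siRNA array and 27.3 on the control siRNA array (0.83). Ifi204, a member of the interferon-inducible HIN-200 family, read 0.306 on the GATA1 siRNA array and 0.208 on the control siRNA array (0.55). Socs3, a cytokine signalling inhibitor, read 12.3 on the GATA1 siRNA array and 8.62 on the control siRNA array (0.51).

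Markers of other blood cells also differed between the arrays, and macrophages, neutrophils and dendritic cells express many interferon-stimulated genes. Neutrophil markers were above 0 in 11 of 11 measured genes of 12, with a median of 0.60 and summed relative signals of 122.6 on the GATA1 siRNA array and 82.3 on the control siRNA array. Macrophage and monocyte markers were above 0 in 7 of 9 measured genes, with sums of 22.7 on the GATA1 siRNA array and 14.6 on the control siRNA array, and C1qa was not measured. Cd68 (8.65) and Adgre1 (8.17) were the largest parts of the sum on the GATA1 siRNA array. The 2 markers below 0 were Cx3cr1 (-0.94) and C1qb (-0.10). Dendritic cell markers were above 0 in 5 of 6, with sums of 6.15 on the GATA1 siRNA array and 5.59 on the control siRNA array. Of the NK and T cell markers 2 of 8 were measured, and Cd3d, Cd3g, Cd8a, Ncr1 and Klrb1c were above background on neither array. Of the measured pair, Cd3e read 3.33 on the GATA1 siRNA array and 3.68 on the control siRNA array (-0.14), and the granzyme gene Gzma read 0.124 on the GATA1 siRNA array and 0.0883 on the control siRNA array (0.49). Of the B cell markers 2 of 5 were measured, Cd79a at -0.38 and Cd79b at -0.05, and Pax5 and Ms4a1 were above background on neither array. Eosinophil markers mostly went the other way, with 4 of 6 at least 20% lower (9.5% of all genes) and a median of -0.53. Their sums were 17.98 on the GATA1 siRNA array and 25.26 on the control siRNA array. Siglecf (0.60) and Ear1 (0.03) were above 0. Basophil markers were above 0 in 3 of 4, with sums of 273.5 on the GATA1 siRNA array and 246.1 on the control siRNA array. The part of these cells in the differences of the interferon-stimulated genes was not tested.

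The direction of the set was the same under 13 other ways of processing the 2 arrays, with a median of the measured genes between 0.17 and 0.28. The median of all genes in the same settings lay between -0.09 and 0.07. The GTPases had the highest class median in each of the 13 settings, between 0.27 and 0.43. Of the 30 genes, 25 kept one sign in every setting that measured them (Rtp4 was not measured at a signal of at least 50 on both arrays), and the 5 that did not were Isg15, Oas2, Irf7, Rsad2 and Irf1.

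**Figure D5:**
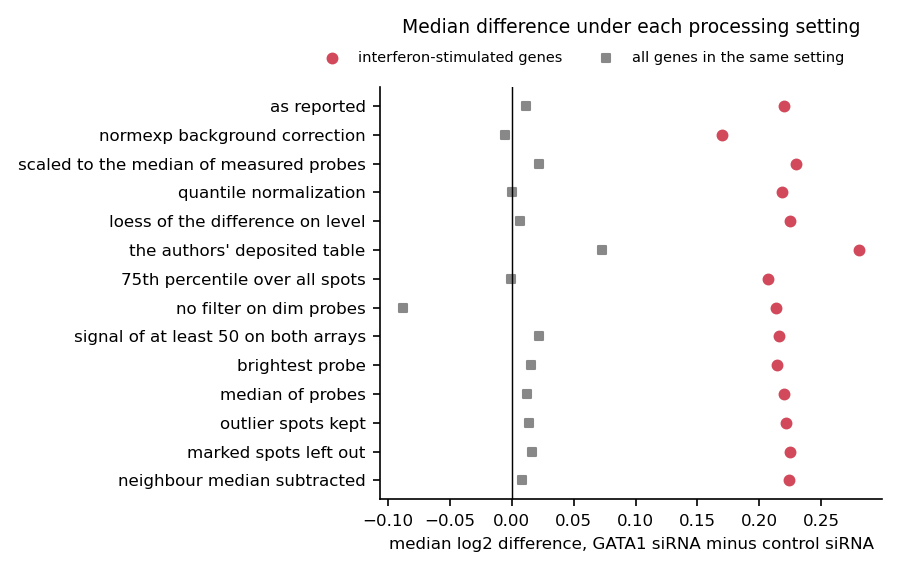
Median log2 difference (GATA1 siRNA minus control siRNA) of the measured interferon-stimulated genes (circles) and of all genes (squares) as reported and under each of 13 other processing settings. The circles lie between 0.17 and 0.28 and each lies right of the square of its setting.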

How the data were processed

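Per the file headers, the authors read both arrays, which lie on 1 slide, with Agilent Feature Extraction 10.7.3.1. The deposited processed signals are intensity values in scanner units, background-subtracted and detrended over the array surface, with surrogate values for dim spots, per the file headers. A deposited table holds the authors' normalized intensity, with a median over spots of 1 on both arrays, and how it was made is not given in the sources used here.

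Control spots and spots marked as outliers (133 on the GATA1 siRNA array and 117 on the control siRNA array, none on the listed genes) were left out, and repeated spots were averaged as log2 values. Signals were scaled to the 75th percentile of 55659 probes on the same array. A probe needed to be well above background, without saturation, on each array, and a gene is the mean log2 value of its measured probes, under the name in the array annotation (coordinates mm9). Promoters come from a RefSeq table (GRCm38.p6) and were matched by symbol. Bounds divide the bright signal by the higher of the dim signal and the lowest signal above background on that array.

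The genes and lists were chosen with earlier results of these data known. Values are printed for genes past a log2 difference of 0.32 in either direction or below 0, for those above background on 1 array only, for the extremes of each class and for the 4 largest differences of the pathway list. The remaining genes of the set were added so that each is accounted for. Fold rules replaced tests. Alternatives were the authors' deposited table, normexp (offset 50), other scalings, filters, probe summaries and spot exclusions. Scripts ran in Python 3.11.15 with pandas 2.3.3 and in R 4.3.3 with limma 3.58.1, and were tested on simulated data. A few single genes of the pathway and marker lists are not reported here by name.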

Additional observations from a re-analysis of the deposited data

How the results depend on the processing

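With 1 array a group no setting has a replicate check. No paired analysis was possible because each siRNA has 1 array. The count of genes at least 1.5-fold higher, 2 as reported, was 0 with normexp background correction, 1 with quantile normalization, with loess, with the 75th percentile over all spots and with a signal of at least 50 on both arrays, 4 with the authors' deposited table and 6 of 39 with no filter on dim probes. Without that filter 5 of 39 genes were at least 20% lower, against 0 as reported, and Irf1 turned to -0.062, since surrogate values of dim spots then enter. A 2-fold rule gave 0 genes higher, against 8 at the 25% rule. With normexp the medians were 0.076 for the ISG15 system and PARPs, 0.030 for the effectors and 0.27 for the GTPases, and Rtp4 was at 0.13 and Gbp3 at 0.19. With the authors' deposited table, in which the median of all genes was 0.07, the medians were 0.28 for the whole set, 0.28 for sensors, 0.22 for transcription factors, 0.23 for the ISG15 system and PARPs, 0.18 for effectors, 0.43 for GTPases, 0.34 for antigen processing and 0.21 for the pathway list. These shifts are a single offset, since that scaling moved every gene by the same amount. The ISG15 system and PARPs had 0.082 at a signal of at least 50 and with the brightest probe, which also gave 0.31 for sensors and 0.43 for GTPases. Subtracting the median of neighbouring spots, a setting chosen after seeing the data, gave 0.29 for sensors and 0.32 for GTPases, so that these classes lay closer together. The same setting gave 0.26 for antigen processing and 0.17 for effectors. Isg15 was at -0.24 at a signal of at least 50 and with the brightest probe, and at -0.23 without spots beside others that differ strongly. Genes above 0 numbered 22 of 26 at a signal of at least 50, 29 of 39 with no filter on dim probes and 23 to 27 of 30 in the other settings. Genes at least 25% higher numbered 7 of 26, 10 of 39 and 6 to 10 of 30 in the same order. Counting Mx1 and Mx2 with the GTPases left their median at 0.37, as neither is measured. Of all genes at least 25% higher or 20% lower, 43.5% were higher as reported, 59.1% with the authors' deposited table, 53.5% with loess and 24.2% with no filter on dim probes. Apart from these scalings and the filter, the cause of each shift was not tested.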
